A study of Mus musculus with 12 samples.

Results

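The 33 genes described here mark vascular and lymphatic endothelium, the cells that line blood and lymph vessels. They were chosen by symbol, and all 33 were found among the 55573 genes of the deposited count table. Their levels were followed in 12 RNA-seq libraries of adipocytes, 4 from wild-type (WT) mice, 4 from mice in which threonine 166 of the nuclear receptor PPARγ was replaced by alanine (TA, T166A) and 4 from mice in which it was replaced by aspartate (TD, T166D). All 3 genotypes were on the C57BL/6 background and, by the study's methods, homozygous. The stromal vascular fraction of inguinal fat, which holds preadipocytes together with vascular and immune cells, was plated and grown to confluence. It was induced for 4 days with 850 nM insulin, 1 nM triiodothyronine, 0.5 mM IBMX, 125 nM indomethacin and dexamethasone, then kept in insulin and triiodothyronine until day 8. The mutations are carried by every cell of the mouse, so a difference between genotypes is not tied to the adipocytes. Whether the 4 libraries of a genotype came from separate mice or cultures is not given, and p-values therefore measure the spread between libraries, which may be technical.

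Endothelial cells are held together by junctions built from VE-cadherin and claudin-5. They respond to VEGF and angiopoietins through receptor tyrosine kinases, and keep their identity through transcription factors of the ETS and SOXF families. In fat, the capillary endothelium also carries GPIHBP1, which holds lipoprotein lipase at the vessel wall. Lymphatic endothelium adds PROX1, VEGFR3 and LYVE1.

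The cultures, labelled as adipocytes, expressed adipocyte and fibroblast genes in abundance. In CPM, which are counts scaled to a common, normalised library size, the adipocyte gene Fabp4 averaged 7710 in WT, 8900 in TA and 5170 in TD, and the fibroblast collagen gene Col3a1 averaged 7150, 10400 and 13800. The 12 adipocyte genes examined summed to 18500, 19900 and 12600 CPM, and the 12 fibroblast and preadipocyte genes to 13900, 18700 and 25600. The 33 endothelial genes were a small share of the RNA: their summed level was 144 ± 31.6 CPM in WT, 236 ± 47.8 in TA and 340 ± 31.6 in TD (SD, n = 4 each). By library the sum was 151, 151, 175 and 100 CPM in WT replicates 1 to 4, 240, 173, 290 and 241 in TA, and 331, 326, 316 and 386 in TD. Every TD library was above every other library, whereas the lowest TA library lay just below the highest WT library. The mean sum in TD was 2.36-fold that of WT, and the mean in TA 1.64-fold. In bulk RNA, the number of endothelial cells, the level of these RNAs per endothelial cell and their expression in other cells cannot be told apart.

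The libraries held 16553324 to 20324286 counts, and all WT libraries exceeded all mutant ones in depth. Single members had from 2 counts in a library upwards: 26 of the 33 had at least 10 counts in every library, and Fli1, Icam2, Myct1, Prox1, Sox17, Sox7 and Ushbp1 did not. Counting error alone is therefore large for the lowest members. All 33 passed the filter on low counts. Prox1, Myct1 and Sox17, with 2 to 7, 6 to 18 and 2 to 17 counts in WT, passed it through the mutant libraries. Their rise there is therefore not independent of the filter.

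**Figure D1:**
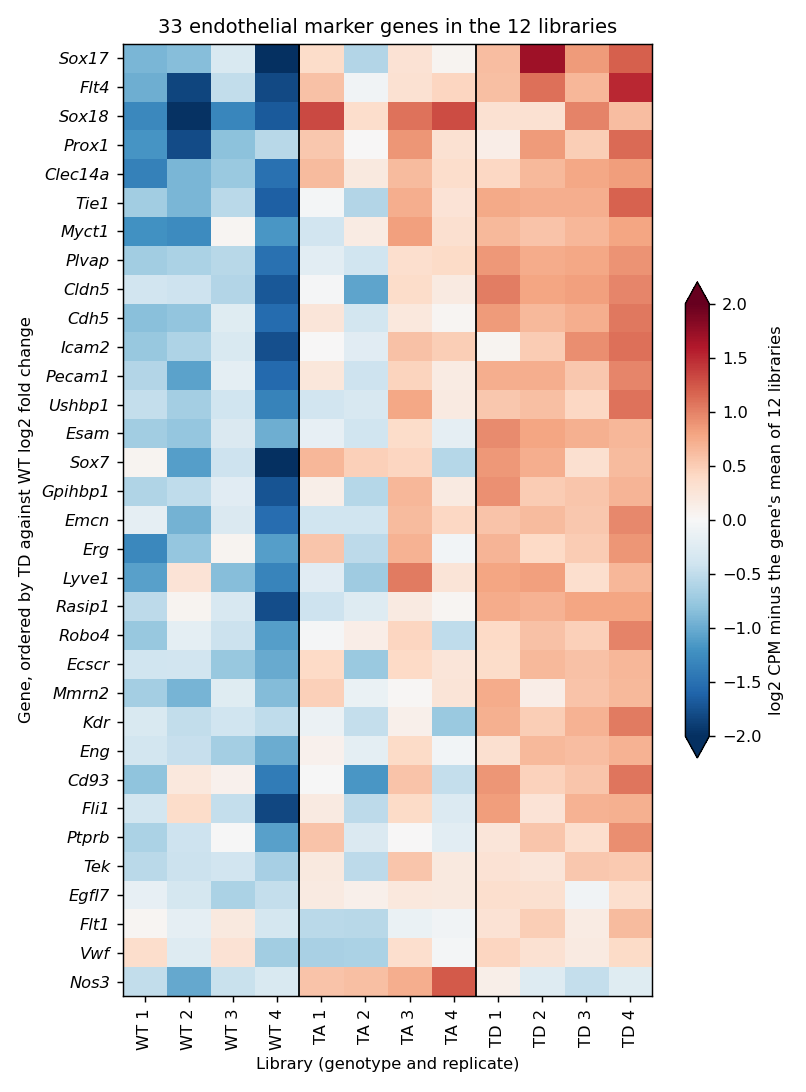
Heat map of the 33 genes (vertical axis, ordered by TD against WT fold change) in the 12 libraries (horizontal axis); colour gives log2 CPM minus the gene's mean over the libraries, red above and blue below, with the scale cut at 2 in either direction. Most genes are blue in WT, pale in TA and red in TD, WT replicate 4 is the bluest library, and Nos3 at the bottom is red in TA.

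Between TD and WT, 31 of the 33 genes rose and none fell (edgeR quasi-likelihood test, Benjamini-Hochberg adjusted p under 0.05). The count of falls was also 0 at an unadjusted p under 0.05 and with DESeq2. Of all 15117 genes tested, 15.1% were called higher in TD and 14.2% lower. With only genes of at least 10 counts in every library kept, 24 members were called higher, beside 2189 of 13088 genes in all. Without a filter on low counts the number was 31, beside 2495 of 29115. The median log2 fold change of the 33 genes was 1.35, against 0.0112 over all tested genes, and single values ran from 0.35 to 2.28. For 29 of the 33, every TD library was above every WT library, against 15.8% of all tested genes. The exceptions to the rise were Vwf and Nos3, described below.

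Between TA and WT, 16 of the 33 genes rose and none fell in the same test (0 also at an unadjusted p under 0.05 and with DESeq2), where 6.72% of all tested genes were called higher and 4.41% lower. The median log2 fold change of the members was 0.85, against -0.00555 over all tested genes. For 11 of the 33, all TA libraries were above all WT libraries, against 7.71% of tested genes. Both comparisons share the WT libraries. With DESeq2 in place of edgeR the count in TA was 20, beside 1202 of 15000 genes in all, and in a fit of WT and TA alone it was 12, beside 783 of 14644. With edgeR on all libraries, 1016 of 15117 genes were higher.

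Between TD and TA, 8 genes were higher in TD and 1 was lower, where 7.33% of all tested genes were called higher and 9.37% lower. The members' median log2 fold change was 0.53, against 0.0234 over all tested genes. The 8 were Cdh5, Kdr, Flt1, Esam, Eng, Cldn5, Plvap and Rasip1, and the 1 lower gene was Nos3. For 11 members all TD libraries were above all TA libraries (9.32% of tested genes), and for Nos3 alone all were below (10.6% of tested genes). Leaving out 1 library moved the count of 8 to between 5 and 13: it was 5 without TA replicate 2 and 5 without TD replicate 4, and 13 without TA replicate 3. The count over all tested genes moved the same way, from 1108 of 15117 to 579 of 15431, 542 of 15364 and 1770 of 15377.

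The mean levels followed the order WT, TA, TD for 29 of the 33 genes. Of these 29, the steps from WT to TA and from TA to TD both passed the test for 4, Cdh5, Esam, Eng and Plvap. Cdh5 and Plvap kept both calls in all 15 alternative fits, while Esam lost the first in 8 and Eng the second in 5. For 10 only the first step passed, and for Kdr, Cldn5 and Rasip1 only the second. For the remaining 12, neither step passed the threshold, although TD did not overlap with TA for Sox17, nor TA with WT for Ushbp1. Flt1 and Vwf were lowest in TA, and Sox18 and Nos3 were highest in TA.

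**Figure D2:**
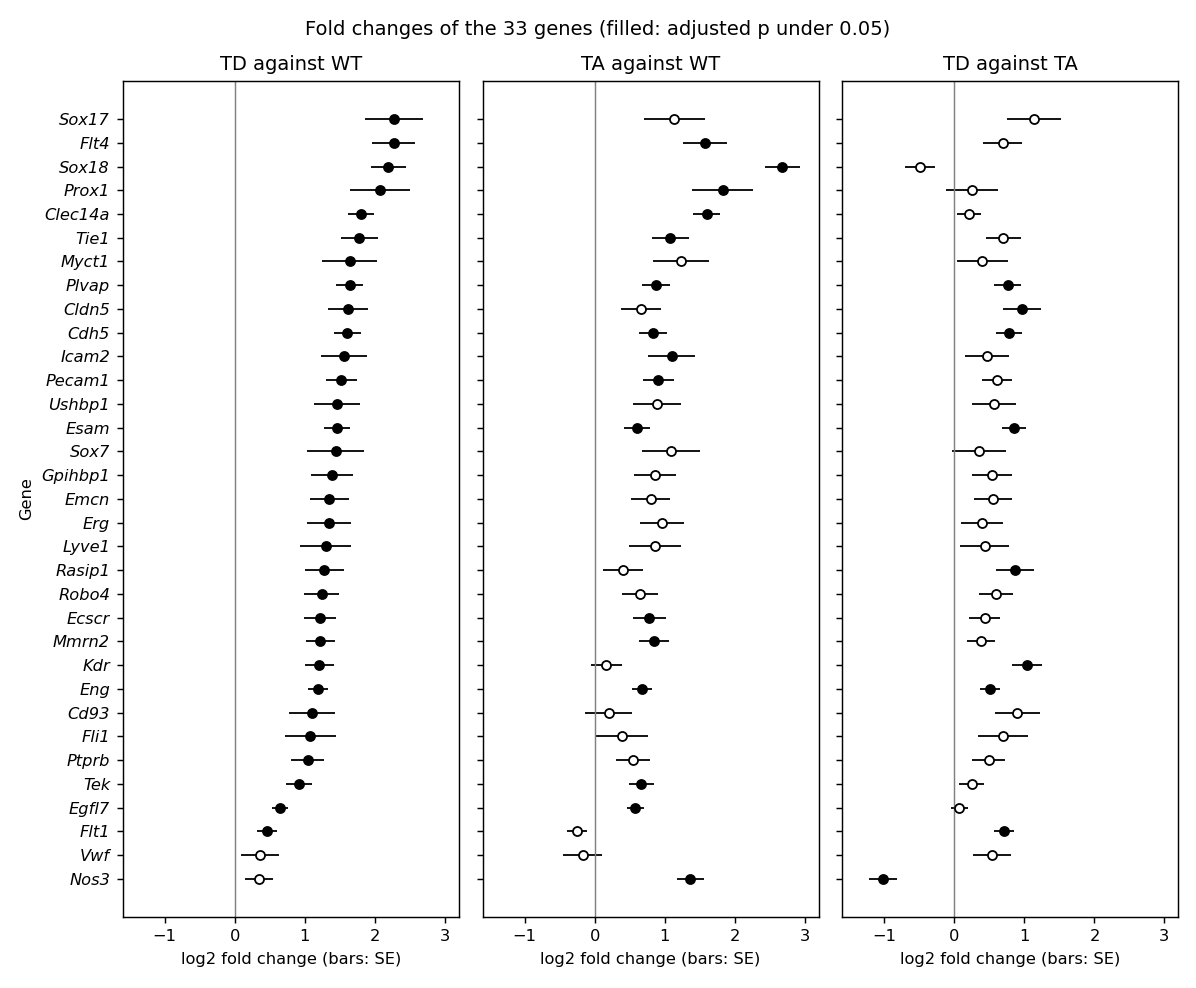
Fold changes of the 33 genes (vertical axis) in the 3 comparisons, as log2 fold change (horizontal axis, point) with its standard error (bar); filled points have an adjusted p under 0.05. In TD against WT all points lie to the right of 0 and 31 are filled, in TA against WT 16 are filled, and in TD against TA 8 are filled to the right and Nos3 to the left.

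All 5 junction and adhesion genes rose in TD against WT. Pecam1, the platelet endothelial adhesion molecule CD31 (chromosome 11, 106654217 to 106750628, GRCm38), was at 16.3, 11.5, 21.4 and 8.27 CPM in WT replicates 1 to 4, at 28.7, 18.4, 33.5 and 27.4 in TA, and at 40.6, 40.6, 35.4 and 48.1 in TD. The TD libraries were above all others, and the TA and WT libraries overlapped. TD against WT gave a log2 fold change of 1.52 ± 0.222 (SE; adjusted p = 0.000213), 0.91 ± 0.224 in TA against WT (adjusted p = 0.0143) and 0.61 ± 0.215 in TD against TA (adjusted p = 0.0633).

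Cdh5, which encodes VE-cadherin, the adhesion protein of endothelial adherens junctions (chromosome 8, 104101625 to 104144511), was at 10.7, 11.1, 16.3 and 6.58 CPM in WT, at 22.6, 14.9, 22.3 and 19.8 in TA, and at 34.7, 30.2, 31.9 and 39.9 in TD. It rose at each step, by a log2 fold change of 0.83 ± 0.199 from WT to TA (adjusted p = 0.0124) and of 0.78 ± 0.191 from TA to TD (adjusted p = 0.0114). Per kilobase of exon Cdh5 was the second highest of the 33 genes in TD, at 8.14 CPM per kilobase, after Plvap at 8.81. Cldn5, the claudin of endothelial tight junctions, was at 3.32, 3.23, 2.87 and 1.26 CPM in WT, at 4.27, 2.03, 5.62 and 4.95 in TA and at 8.97, 7.6, 7.77 and 8.68 in TD. Its TD level was 3.07-fold that of WT (adjusted p = 0.000619) and 1.95-fold that of TA (adjusted p = 0.0238), while TA and WT differed by a log2 fold change of 0.66 ± 0.289 (adjusted p = 0.163). Esam, an adhesion molecule of endothelial tight junctions, rose 2.75-fold in TD, from 3.92 ± 0.843 to 10.8 ± 0.94 CPM (SD, n = 4; edgeR adjusted p = 8.93e-05). Icam2, a ligand of leukocyte integrins, rose 2.95-fold, from 0.976 ± 0.397 to 2.91 ± 0.914 CPM (SD, n = 4; edgeR adjusted p = 0.00259). The TA calls of both depended on the fit, with adjusted p = 0.0452 for Esam and 0.0476 for Icam2, and highest values over the alternatives of 0.156 and 0.12.

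**Figure D3:**
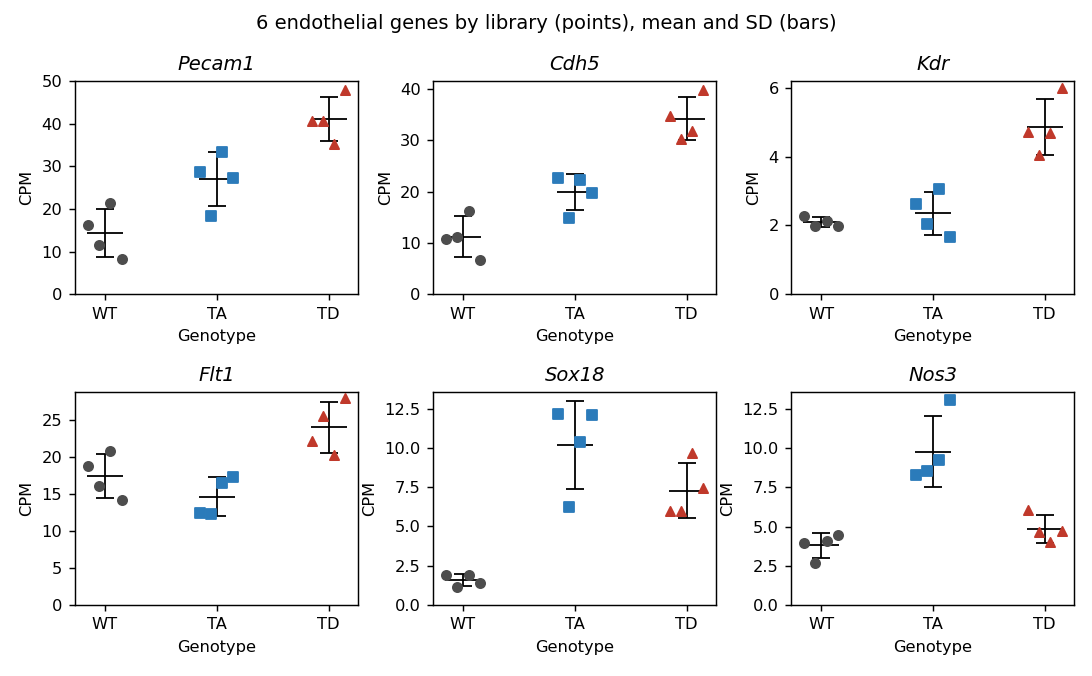
CPM (vertical axis) of 6 genes in WT, TA and TD (horizontal axis); points are libraries, and bars give the mean and SD of 4 libraries. Pecam1 and Cdh5 step upwards from WT to TA to TD, Kdr stands apart in TD, Flt1 in TD overlaps with WT but not with TA, Sox18 is high in both mutants, and Nos3 is high only in TA.

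All 8 receptor genes rose in TD against WT, and 4 of them, Flt4, Tek, Tie1 and Eng, also rose in TA. The 3 VEGF receptors differed among themselves. Kdr, which encodes VEGFR2, the main signalling receptor for VEGF-A, was at 2.28, 1.99, 2.13 and 1.97 CPM in WT, at 2.63, 2.03, 3.06 and 1.67 in TA, and at 4.71, 4.04, 4.68 and 5.98 in TD. WT and TA overlapped (log2 fold change 0.17 ± 0.221, adjusted p = 0.705), and TD was 2.31-fold above WT (adjusted p = 0.000667) and 2.06-fold above TA (adjusted p = 0.00347).

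Flt1, which encodes VEGFR1, a receptor that binds VEGF-A strongly but signals weakly, was at 18.7, 16.0, 20.8 and 14.1 CPM in WT, at 12.4, 12.3, 16.5 and 17.3 in TA, and at 22.2, 25.5, 20.3 and 28.0 in TD. TD lay above all TA libraries and overlapped with WT. TD against WT gave a log2 fold change of 0.46 ± 0.145 (adjusted p = 0.0242), -0.25 ± 0.148 in TA against WT (adjusted p = 0.319) and 0.71 ± 0.147 in TD against TA (adjusted p = 0.00388). The call against WT was lost in 4 of the leave-one-out fits.

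Flt4, which encodes VEGFR3, the VEGF-C receptor of lymphatic endothelium (chromosome 11, 49609263 to 49652739), was at 1.35, 0.695, 1.93 and 0.712 CPM in WT, at 4.21, 2.64, 3.45 and 3.78 in TA, and at 4.26, 6.04, 4.47 and 8.03 in TD. The 3 genotypes did not overlap. It rose 4.82-fold in TD (adjusted p = 0.000147) and 2.98-fold in TA (adjusted p = 0.00368), and the difference between the mutants missed the threshold (log2 fold change 0.69 ± 0.282, adjusted p = 0.104).

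The angiopoietin receptor Tek, also called TIE2, rose 1.89-fold in TD (adjusted p = 0.0015) and 1.59-fold in TA (adjusted p = 0.0264), from 5.46 ± 0.472 CPM in WT to 8.65 ± 2.49 in TA and 10.3 ± 1.12 in TD (SD, n = 4; edgeR). The TA call of Tek was lost in 6 of 15 alternative fits (highest adjusted p 0.0891). Its partner Tie1 was at 3.37, 2.88, 3.77 and 1.7 CPM in WT, at 5.38, 3.63, 9.13 and 6.67 in TA, and at 9.37, 9.22, 9.15 and 12.7 in TD. Tie1 rose 3.43-fold in TD (adjusted p = 0.000209) and 2.11-fold in TA (adjusted p = 0.0138), and TA overlapped with WT. The lowest TD library was just above the highest TA library (9.15 against 9.13 CPM). The difference between the mutants missed the threshold (log2 fold change 0.7 ± 0.246, adjusted p = 0.062). Eng, the TGF-β coreceptor endoglin, was 2.28-fold above WT in TD (adjusted p = 8.02e-05) and 1.6-fold in TA (adjusted p = 0.00524), with no overlap between either mutant and WT. Ptprb, the phosphatase that restrains TIE2, and Robo4, an endothelial guidance receptor, rose in TD by 2.06-fold (adjusted p = 0.00412) and 2.36-fold (adjusted p = 0.0017). In TA against WT their log2 fold changes were 0.55 ± 0.243 and 0.65 ± 0.255 (adjusted p = 0.162 and 0.119).

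All 6 transcription factors rose in TD against WT, and Sox18 and Prox1 also rose in TA. Sox18, a SOXF factor of vascular and lymphatic development (chromosome 2, 181669836 to 181671640), was at 1.92, 1.14, 1.88 and 1.42 CPM in WT, at 12.2, 6.21, 10.4 and 12.1 in TA, and at 5.96, 5.98, 9.69 and 7.45 in TD. Every mutant library was above every WT library. It had the largest TA fold change of the 33 genes, 6.4-fold (log2 2.68 ± 0.249, adjusted p = 3.54e-06), against 4.55-fold in TD (log2 2.19 ± 0.25, adjusted p = 6.84e-05). TD and TA overlapped, with a log2 fold change of -0.49 ± 0.218 between them (adjusted p = 0.133).

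The other SOXF factors kept the order of the whole set. Sox17, a factor of arterial endothelium (chromosome 1, 4490931 to 4497354), was at 0.519, 0.546, 0.842 and 0.11 CPM in WT, at 1.4, 0.676, 1.34 and 1.11 in TA, and at 1.7, 3.72, 2.02 and 2.58 in TD. It had the largest rise of the 33 genes in TD, 4.87-fold (log2 2.28 ± 0.416, adjusted p = 0.000846), but its lowest library held 2 counts. TD did not overlap with TA or WT, and the difference between TD and TA was just above the threshold (adjusted p = 0.0523). Sox7, with 4 counts in its lowest library, rose 2.71-fold in TD (adjusted p = 0.0139), and its log2 fold change in TA against WT was 1.09 ± 0.411 (adjusted p = 0.103).

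Both ETS factors rose in TD. Erg, which maintains endothelial junction genes, went from 1.8 ± 0.876 CPM in WT to 3.52 ± 1.32 in TA and 4.65 ± 0.717 in TD, and rose 2.56-fold in TD (SD, n = 4; edgeR adjusted p = 0.0041). Fli1, a related factor also found in blood cells, was at 1.25, 2.14, 1.14 and 0.384 CPM in WT, at 1.87, 1.11, 2.17 and 1.33 in TA, and at 3.01, 1.99, 2.71 and 2.76 in TD. Its genotypes overlapped, and its TD call (2.11-fold, adjusted p = 0.034) was lost in 6 of the leave-one-out fits.

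The promoters of members were searched for the short letters that ETS and SOX factors bind, and those with an ETS match are shown because Erg and Fli1 are members. RefSeq promoter windows on GRCm38.p6, from 250 bases before to 50 after a start, were matched for 16 of the 33 genes (21 windows). Searched on both strands, ACAGGAAG or CCGGAAGT, which share the letters GGAAG, was in 4 of the 21 windows and in 7.31% of all 32851 windows. The SOX letters ACAAAG or AACAAT, which share ACAA, were in 7 of the 21 and in 27.0% of all. No member window held 2 direct repeats of AGGTCA with 1 base between, a form of the PPAR response element, and 0.0396% of all windows did. The 4 windows with an ETS match belong to Egfl7 (2 alternative starts), Emcn and Ushbp1. Stretches of 80 bases around the match are printed along the gene's strand, with the match in capitals; in Emcn and Ushbp1 it reads on the opposite strand. They lie at chr2:26580956-26581035 and chr2:26583747-26583826 (both plus), chr3:137340868-137340947 (plus) and chr8:71395822-71395901 (minus). A match is a description of letters and not a binding site.
Egfl7, first start: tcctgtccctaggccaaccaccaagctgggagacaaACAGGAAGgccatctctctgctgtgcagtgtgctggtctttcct
Egfl7, second start: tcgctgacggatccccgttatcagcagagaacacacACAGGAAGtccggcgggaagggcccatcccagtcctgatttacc
Emcn: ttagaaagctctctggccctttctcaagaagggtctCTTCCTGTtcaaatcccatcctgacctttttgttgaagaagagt
Ushbp1: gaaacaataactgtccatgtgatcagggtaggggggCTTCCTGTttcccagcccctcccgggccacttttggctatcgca

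The 8 surface glycoprotein genes all rose in TD against WT, without overlap for any of them, and Plvap, Clec14a and Ecscr also rose in TA. Clec14a, a C-type lectin of sprouting endothelium, was at 2.08, 2.83, 3.22 and 1.86 CPM in WT, at 8.54, 6.27, 8.52 and 7.0 in TA, and at 7.27, 8.62, 9.37 and 9.79 in TD. Both mutants stood well apart from WT and overlapped with each other. It rose 3.49-fold in TD (adjusted p = 3.34e-05) and 3.02-fold in TA (adjusted p = 3.99e-05), and TD against TA gave a log2 fold change of 0.21 ± 0.173 (adjusted p = 0.441).

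Plvap, which forms the diaphragms of fenestrae and caveolae, was at 6.02, 6.31, 6.69 and 3.45 CPM in WT, at 8.48, 7.44, 12.5 and 12.9 in TA, and at 18.0, 16.7, 17.0 and 18.4 in TD. The 3 genotypes did not overlap, and each step passed the test (1.84-fold from WT to TA, adjusted p = 0.0085, and 1.69-fold from TA to TD, adjusted p = 0.0121). Gpihbp1, the lipoprotein lipase anchor of capillaries, was at 1.82, 1.94, 2.38 and 0.767 CPM in WT, at 3.04, 1.84, 4.51 and 3.17 in TA, and at 5.39, 4.04, 4.15 and 4.57 in TD. It rose 2.61-fold in TD (adjusted p = 0.00263), and its log2 fold change in TA against WT was 0.86 ± 0.303 (adjusted p = 0.0799).

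Emcn, a sialomucin of venous and capillary endothelium, rose 2.54-fold in TD (adjusted p = 0.002). Myct1, a small membrane protein of endothelial cells, rose 3.11-fold from 0.458 ± 0.29 to 1.45 ± 0.0988 CPM (SD, n = 4; edgeR adjusted p = 0.00509). Ecscr, a regulator of endothelial migration, rose 2.32-fold in TD (adjusted p = 0.00118) and 1.72-fold in TA (adjusted p = 0.041), and its TA call was lost in 8 of 15 alternative fits. Cd93, a receptor shared by endothelial and myeloid cells, was at 9.81, 19.9, 18.3 and 6.47 CPM in WT, at 17.2, 7.63, 25.7 and 12.3 in TA, and at 31.8, 23.8, 25.4 and 36.3 in TD. TD was above all WT libraries (2.14-fold, adjusted p = 0.0185) and overlapped with TA.

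The 3 lymphatic genes, Flt4, Lyve1 and Prox1, all rose in TD, and Flt4 and Prox1 rose in TA. Prox1, the factor that specifies lymphatic endothelium, was the lowest of the 33 genes in every genotype per kilobase of exon. It was at 0.208, 0.0993, 0.297 and 0.384 CPM in WT, at 0.936, 0.615, 1.22 and 0.778 in TA, and at 0.681, 1.19, 0.905 and 1.47 in TD. Neither mutant overlapped with WT, and the fold change was 4.23 in TD (log2 2.08 ± 0.428, adjusted p = 0.00198) and 3.56 in TA (log2 1.83 ± 0.435, adjusted p = 0.0116). Its lowest library held 2 counts, so the size of the rise is loosely set. Lyve1, a hyaluronan receptor of lymphatic endothelium and of some macrophages, was at 1.5, 4.02, 1.78 and 1.26 CPM in WT, at 2.81, 1.97, 6.9 and 3.95 in TA, and at 5.79, 5.93, 4.2 and 5.28 in TD. It rose 2.46-fold in TD (adjusted p = 0.0145), and in TA against WT its log2 fold change was 0.86 ± 0.373 (adjusted p = 0.157).

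Of the 3 secreted genes, Egfl7 and Mmrn2 rose in both mutants and Vwf in neither. Mmrn2, a matrix glycoprotein that binds CD93 and CLEC14A, rose 2.33-fold in TD (adjusted p = 0.000544) and 1.8-fold in TA (adjusted p = 0.015). Vwf, the von Willebrand factor of the clotting system, was at 3.37, 2.18, 3.22 and 1.59 CPM in WT, at 1.64, 1.66, 3.34 and 2.56 in TA, and at 3.58, 3.29, 2.98 and 3.46 in TD. The genotypes overlapped, and TD against WT gave a log2 fold change of 0.36 ± 0.268 (adjusted p = 0.344) and -0.17 ± 0.275 in TA against WT (adjusted p = 0.762).

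Egfl7, a secreted factor and host gene of miR-126 (chromosome 2, 26580014 to 26593120), was at 13.5, 11.9, 9.76 and 11.0 CPM in WT, at 17.3, 16.4, 17.7 and 17.5 in TA, and at 19.3, 19.1, 14.6 and 19.3 in TD. It rose 1.57-fold in TD (adjusted p = 0.000867) and 1.49-fold in TA (adjusted p = 0.00446). Its level is uncertain: 64 of its exonic bases are shared with Agpat2 on the opposite strand, a lipid synthesis gene of adipocytes with a mean of 15720 counts against 282.5 for Egfl7, and the strand setting of the counting is not given in the sources used here. Eng shares 61 exonic bases with Fpgs on the opposite strand (means of 406.1 and 192.4 counts), and Nos3 shares 294 with Atg9b and 1040 with Gm15587, whose mean counts were 8.667 and 5.0 against 110.4 for Nos3. Rasip1 shares 498 exonic bases with A030001D20Rik on the opposite strand (means of 65.83 and 28.92 counts). It also shares 654 with Izumo1 on the same strand (mean of 2.167 counts), so its level is uncertain too. Egfl7 shares a further 264 with Gm20532 on the same strand (mean of 0.0 counts).

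Rasip1, a RAS-interacting protein needed for lumen formation, rose 2.44-fold in TD (adjusted p = 0.00261) and was also above TA (1.83-fold, adjusted p = 0.0366), a call lost in 7 of 15 alternative fits. Ushbp1, a PDZ-binding protein, rose 2.75-fold in TD (adjusted p = 0.00373). Nos3, which encodes endothelial nitric oxide synthase (chromosome 5, 24364810 to 24384474), differed from the rest. It was at 3.94, 2.68, 4.06 and 4.49 CPM in WT, at 8.31, 8.55, 9.24 and 13.1 in TA, and at 6.07, 4.64, 3.99 and 4.69 in TD. Every TA library was above every other library, and TD overlapped with WT. Nos3 rose 2.59-fold in TA (log2 1.37 ± 0.196, adjusted p = 0.000239), was lower in TD than in TA (log2 fold change -1.02 ± 0.194, adjusted p = 0.00223), and differed between TD and WT by a log2 fold change of 0.35 ± 0.202 (adjusted p = 0.204). Both Nos3 calls held in all 15 alternative fits.

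The 33 genes varied together across the libraries. Over the 12 libraries, the median of Pearson's r over the 528 pairs of members was 0.80, and r was above 0 for 522 pairs, with a range from -0.36 to 0.98. Over all pairs of the 15117 tested genes the median was -0.00033. These correlations are descriptions, since the points share 3 genotypes and the genes share libraries. With each genotype's mean removed, the median over the members fell to 0.50, with 484 of 528 pairs above 0, against -0.0016 over all tested genes.

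Within genotypes, single libraries were low or high for most members at once. WT replicate 4 was the lowest WT library for 25 of the 33 genes, and TA replicate 2 the lowest TA library for 25. TA replicate 3 was the highest TA library for 22, WT replicate 3 the highest WT library for 17 and TD replicate 4 the highest TD library for 20. A member score, computed as the average over the 33 genes of log2 CPM minus each gene's own 12-library average, was -0.63, -0.67, -0.38 and -1.27 in WT, 0.13, -0.30, 0.47 and 0.13 in TA, and 0.58, 0.59, 0.55 and 0.82 in TD. TD libraries were the closest to each other, with an SD of 0.12 against 0.38 in WT and 0.32 in TA. Some of these libraries were also at the extremes of other lists. On the same scale, the macrophage list was lowest of WT in replicate 4 (-0.79), lowest of TA in replicate 2 (-1.66) and highest of TA in replicate 3 (0.47). The pericyte list was at -0.72, -0.07 and 0.44 in these libraries, again the lowest of WT, the lowest of TA and the highest of TA. It was also highest of WT in replicate 3 (-0.47) and highest of TD in replicate 4 (0.49). The fibroblast list was lowest of TA in replicate 2 (-0.36) and highest in replicate 3 (0.53). In TD it was highest in replicates 3 and 4 (0.59 each). In WT it was lowest in replicate 1 (-0.72) and highest in replicate 2 (-0.38). The macrophage list was highest in WT replicate 2 (1.02) and TD replicate 1 (0.85), not in WT replicate 3 (0.11) or TD replicate 4 (0.56). In TA the adipocyte list went the other way, highest in replicate 2 (0.36) and lowest in replicate 3 (-0.14). It was also lowest of WT in replicate 3 (0.08) and lowest of TD in replicate 4 (-0.49). Its highest WT library was replicate 1 (0.29), not replicate 4 (0.25). The part of these lists in the co-variation was not tested.

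Members differed in how closely they followed the rest. Within genotypes, r between a gene and the mean of the other 32 was 0.97 for Tie1, 0.94 for Gpihbp1, 0.93 for Pecam1 and 0.91 for Cdh5. Vwf, which was not called in any comparison, and Flt1 followed the others within them, at 0.81 and 0.76. Nos3 did not, at -0.12, and Egfl7 and Prox1 were low at 0.12 and 0.13. In WT, replicate 2 was the highest library for Cd93, Ecscr, Fli1, Lyve1, Rasip1 and Robo4, a library that was also highest for macrophage genes.

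**Figure D4:**
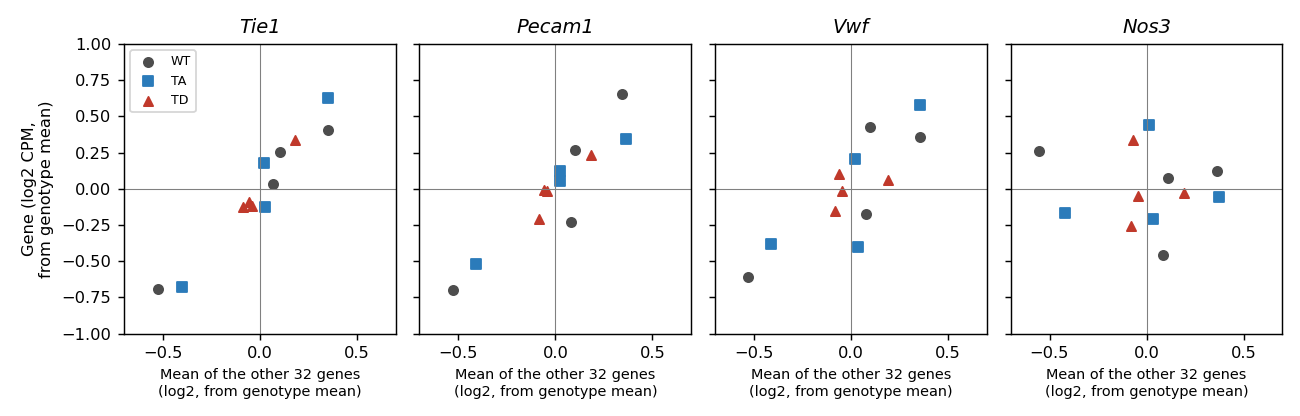
For Tie1, Pecam1, Vwf and Nos3, log2 CPM of the gene in each library relative to its genotype mean (vertical axis) against the mean of the other 32 genes on the same scale (horizontal axis); symbols give the genotype. Tie1, Pecam1 and Vwf rise along the diagonal, led by WT replicate 4 and TA replicate 2 at the lower left, and Nos3 shows no slope.

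Outside the lists, the 10 genes with at least 1 CPM whose log2 CPM had the highest r with the member score over the 12 libraries were Rgs4 (0.995), Mapk8ip1 (0.984), Adgrf5 (0.981), Bcam (0.98), Fam43a (0.98), Neurl3 (0.977), Hpse (0.974), Trp53i11 (0.974), Pros1 (0.973) and Mill2 (0.972). Rgs4, a regulator of G protein signalling, was at 1.99 CPM on average in WT, 5.57 in TA and 8.37 in TD, a pattern fixed by how it was chosen.

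Other endothelial genes were mostly higher in TD than in WT, and most were not called in TA. Of 40 further genes known from endothelium, 35 were tested, and 24 rose and 1 fell in TD against WT, with a median log2 fold change of 1.08. Of all tested genes, 15.1% were called higher there and 14.2% lower. The largest rise was that of Mmrn1, a multimerin of lymphatic endothelium and platelets (log2 2.35, adjusted p = 0.00208), and the fall was that of Rgcc, a cell cycle regulator also expressed in other cells (log2 -0.46, adjusted p = 0.00261). In TA against WT, 8 rose, 1 fell and 26 were not called, with a median log2 fold change of 0.53. Of all tested genes, 6.72% were called higher there and 4.41% lower. Car4, a carbonic anhydrase of capillaries, rose most in TA (log2 1.96, adjusted p = 0.0214). Between TD and TA, 8 were higher, led by Stab1, a scavenger receptor of sinusoidal endothelium and macrophages (log2 1.19, adjusted p = 0.0185), and 1 was lower, the tetraspanin Tspan18 (log2 -1.02, adjusted p = 1.21e-05). Of all tested genes, 7.33% were called higher there and 9.37% lower. Tspan18 shared with Nos3 a high level in TA, of 46.2 CPM on average against 20.6 in WT and 22.8 in TD.

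Ligands and coreceptors of endothelium, not all of them for the member receptors, held both rises and falls. Of 18 tested, 7 rose and 2 fell in TD against WT (median log2 fold change 0.22), where 15.1% of all tested genes were called higher and 14.2% lower. The 2 falls were Fgf2 and Angptl4. Of the VEGF and angiopoietin ligands, those called in TD against WT, Pgf (log2 0.86) and Angpt2 (log2 1.16), rose. Those called in TA against WT were Angpt2, which rose (log2 0.72), and Vegfb, which fell (log2 -0.38). Angpt1 (log2 0.48) and Vegfd (log2 0.29) were called higher in TD than in TA. In TA against WT, 4 of the 18 rose and 4 fell (median -0.09), where 6.72% of all tested genes were called higher and 4.41% lower. Between TD and TA, 7 were higher and 1 was lower, where 7.33% of all tested genes were called higher and 9.37% lower. Vegfa, the main ligand of VEGFR2, picked after its values were seen, was at 524, 477 and 499 CPM in WT, TA and TD, with a log2 fold change of -0.07 in TD (adjusted p = 0.607). Pdgfb, by which endothelium recruits pericytes, rose most in TD (log2 1.31, adjusted p = 0.000627), and Slit2, a guidance ligand, in TA (log2 1.45, adjusted p = 0.00023). Fgf2, a fibroblast growth factor, was the largest fall in both, by 0.45 on the log2 scale in TD (adjusted p = 0.00289) and by 0.87 in TA (adjusted p = 2.69e-05).

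Of the markers of other cells in such cultures, most pericyte and fibroblast genes rose with the endothelial genes in TD, while adipocyte genes fell. The part of these cells in the result was not tested. Of 13 pericyte and smooth muscle genes, 9 rose and 1 fell in TD against WT and 7 rose in TA, with summed levels of 666 to 734 CPM in WT, 707 to 836 in TA and 784 to 812 in TD. The pericyte genes Kcnj8 (log2 2.55, adjusted p = 8.93e-05, in TD) and Rgs5 (log2 2.40, adjusted p = 4.89e-05, in TA) rose most, and Cspg4 fell in TD by 0.49 (adjusted p = 0.00342). Of 11 tested fibroblast and preadipocyte genes, 9 rose in TD, led by Cd34, which endothelium also expresses (log2 1.61, adjusted p = 0.000271), and 7 rose in TA, led by Pi16 (log2 1.85, adjusted p = 0.000502). Their sum was 12000 to 16100 CPM in WT, 13200 to 23900 in TA and 20800 to 30300 in TD. Of 12 adipocyte genes, 10 fell and none rose in TD, led by Cidec (log2 -0.97, adjusted p = 0.000233), and 1 rose (Cidec, log2 0.50, adjusted p = 0.032) and 1 fell (Lep, log2 -0.99, adjusted p = 6.37e-05) in TA. The sum of the adipocyte genes was 17000 to 20100 CPM in WT, 16700 to 22800 in TA and 11300 to 13600 in TD. Between TD and TA, 9 of the adipocyte genes were lower and 1 higher in TD, while 4 fibroblast genes, 4 muscle genes and 1 pericyte gene were higher and 1 pericyte gene lower.

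Blood cells and muscle were examined as well. Of 16 macrophage and leukocyte genes, 1 rose in TD against WT (C1qa, a complement subunit, log2 0.85, adjusted p = 0.0384), none was called in TA (6 were lower at an unadjusted p under 0.05, and 1 with DESeq2), and 4 were higher in TD than in TA, led by the mannose receptor Mrc1 (log2 1.68, adjusted p = 0.0244). Their sum spanned 310 to 938 CPM in WT, 157 to 676 in TA and 717 to 992 in TD, and WT replicate 2, where Lyve1 and Cd93 were highest in WT, had the 938. In TA, replicate 3 was highest for the sum and for both genes. In TD the sum was highest in replicate 1, but Cd93 was highest in replicate 4 and Lyve1 in replicate 2. A relation of these genes to the macrophage list was not tested. The globin genes Hbb-bt and Hba-a2 had no counts in any library, and Hbb-bs and Hba-a1 had at most 2, so red cell RNA was at the limit of detection; of the 2 red cell and platelet genes tested, the platelet factor Pf4, also found in macrophages, rose in TD (log2 1.12, adjusted p = 0.0154). Of 14 skeletal muscle genes, 10 passed the filter on low counts. Several of these, such as Myog, Ckm and Tnni2, passed it through the mutant libraries, so their rise there is not independent of the filter. All 10 rose in TD and 6 in TA. The summed level of the list was 5.55 to 14.2 CPM in WT, 20.5 to 81.1 in TA and 20.5 to 296 in TD. Myog, the factor of differentiating myoblasts, had no count in WT and reached means of 0.46 CPM in TA and 1.88 in TD, while Pax7, the factor of muscle stem cells, had no count in any library. The muscle sum was lowest among the TD libraries in replicate 1, at 20.5 CPM, and the endothelial score there was 0.58, beside 0.55 to 0.82 in the other TD libraries. This is 1 library, and a relation between the 2 lists was not tested.

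**Figure D5:**
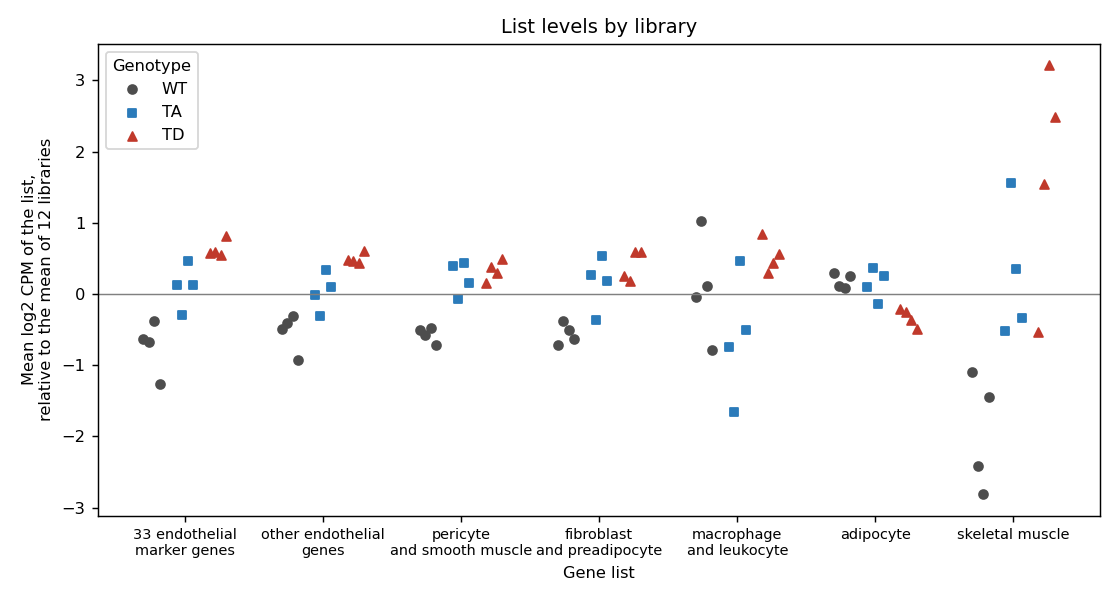
Mean log2 CPM of each gene list, with the average of all libraries set to 0 (vertical axis) for 7 lists (horizontal axis); each point is a library and its symbol the genotype. The 33 endothelial genes and the other endothelial genes rise from WT to TA to TD, pericyte and fibroblast lists are higher in both mutants, the adipocyte list is lower in TD, and macrophage and muscle lists spread widely within a genotype.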

How the data were processed

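The authors sequenced RNA of 4 libraries per genotype on a NovaSeq instrument and, per the submitters' processing notes, used bcl2fastq 2.17.1.14, cutadapt 1.9.1, HISAT2 2.0.1 and HTSeq 0.6.1 on GRCm38. The authors deposited raw counts per gene for 55573 genes, with no normalization. The 33 members and the other gene lists were chosen with earlier results of these data known. R 4.3.3 with edgeR 4.0.16 was used: genes were kept by filterByExpr (minimum count 10, minimum total 15), 15117 were tested, libraries were scaled by TMM (factors 0.9573 to 1.041), and glmQLFit was run once on the 12 libraries together. Tests were two-sided, with p-values adjusted by the Benjamini-Hochberg method over all tested genes. log2 CPM used a prior count of 2. Every member is named, and of each other list the called genes with the largest rise and fall, with those a check turns on; the genes most like the members were taken by Pearson's r. The steps were tested on simulated counts. Replicates differed by more than sampling noise (chi-square per degree of freedom 4.67 to 35.3). Loci come from GENCODE M21 (99.8% of identifiers matched). The mutations are substitutions, so gene counts do not check the genotype labels. DESeq2 1.42.0, other scalings, filters and left-out replicates were alternatives.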

Additional observations from a re-analysis of the deposited data

Results flagged for a closer look

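In 3 of 102 groups of 4 libraries tested, 1 library lay far from the other 3, by a gap past Dixon's 95% critical value; chance gives about 1 in 20. Tie1 was at 12.7 CPM in TD replicate 4, where the nearest TD library had 9.37, and that library was the highest in TD for 20 of the 33 genes. Egfl7 was at 14.6 CPM in TD replicate 3, where the nearest had 19.1. Myct1 was at 0.892 CPM in WT replicate 3, where the nearest had 0.329.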

How the results depend on the processing

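No fold change of a called member changed sign in any alternative. Over the alternative fits, 444 of 458 values of the TD against WT calls kept their side of the threshold, 206 of 238 in TA against WT and 120 of 135 in TD against TA. The calls lost most often were Fli1, Flt1 and Cd93 in TD against WT, Icam2, Ecscr, Esam and Tek in TA against WT, and Rasip1, Eng and Cldn5 in TD against TA. Leaving out 1 library gave 28 to 31 higher members in TD against WT, 12 to 20 in TA against WT and 5 to 13 in TD against TA, where 1 to 2 were lower; the second was Sox18, without TA replicate 2 (log2 -0.66, adjusted p = 0.041). Over all tested genes, leaving out 1 library gave 1632 to 2433, 700 to 1182 and 542 to 1770 higher, in the same order of comparisons. Without a filter on low counts, 14 members were higher in TD than in TA, beside 1681 of 29115 genes in all. The cause was not tested. The median r of 0.80 was 0.50 after centring within genotypes, which takes out the difference between genotypes by construction. Scaling by library totals moved the median of all tested genes to 0.0789 in TD against WT and to 0.10 in TD against TA on the log2 scale, and members called were 31, 14 and 11 higher and 0, 0 and 1 lower. Of all 15117 genes, that scaling called 2840, 971 and 1802 higher and 1558, 756 and 982 lower. Replicate numbers did not pair the libraries (2 of 12 same-numbered pairs had a correlation over 0.1, with a range of -0.237 to 0.196). With the replicate number as a block the higher members were 31, 15 and 9, beside 2211, 962 and 1118 of all 15117 genes. Members with few counts, such as Prox1 and Sox17, are limited by depth.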
